A study of Homo sapiens with 12 samples.

Results

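Transcripts of the interleukin-1 (IL-1) family, of 3 further secreted cytokines and of prostaglandin E2 synthesis were followed in pancreatic ductal adenocarcinoma cells before and after selection for resistance to gemcitabine (GEM). The set held 10 of the 58302 genes in the deposited table. They were chosen by name, with earlier results of these data known. They comprised the IL-1 family ligands IL1A, IL1B, IL1RN and IL18 and the IL-1 receptor chain IL1RAP. The others were the cytokines IL6, LIF and CSF2 and the enzymes PTGS2 and PTGES.

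RNA-seq was done on 12 libraries, 3 from each of 4 groups. BxPC-3 and CFPAC-1 are established human pancreatic cancer lines. The GEM-resistant lines, BxPC-3-GR from the first and CFPAC-1-GR from the second, were derived by stepwise rising GEM exposure, so each is 1 selected derivative of its parent. The labels give the morphology of BxPC-3-GR as mesenchymal and that of the other 3 groups as epithelial, and name the same culture medium for all 4, whereas the study's methods name a different medium for CFPAC-1. The labels do not say whether the 3 samples of a group came from separate cultures, so p-values measure only the spread between these samples.

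Values are FPKM, fragments counted per kilobase of transcript and scaled to the mapped fragments of the library, which allow levels of different genes to be set side by side. The low FPKM steps implied 12700000 to 25300000 mapped fragments per library. The labels were set beside marker genes. The 5 epithelial markers were at a mean of at least 1 FPKM in every group, and their summed level was 668 to 730 FPKM in BxPC-3, 731 to 761 in BxPC-3-GR, 2458 to 2608 in parental CFPAC-1 and 1046 to 1194 in its resistant line. The 4 mesenchymal markers summed to 12.4 to 15.1 FPKM in BxPC-3 and 14.7 to 16.6 in BxPC-3-GR, where CDH2 (N-cadherin) was higher than in the parental cells (5.40 against 1.99 FPKM) and VIM (vimentin) lower (0.813 against 6.59 FPKM). Their sum was 120 to 155 FPKM in CFPAC-1 and 85.2 to 98.4 FPKM in CFPAC-1-GR. Both groups are labeled epithelial and lay above BxPC-3-GR, labeled mesenchymal, so the sum did not follow the morphology labels. Most of the sum in these groups was VIM (126 and 57.9 FPKM), and CDH2 was also higher there (11.8 and 28.4 FPKM). The markers differed in order, as FN1 (fibronectin) was highest in BxPC-3-GR. It was at 9.09 FPKM there, 5.30 in BxPC-3, 1.58 in CFPAC-1 and 4.46 in CFPAC-1-GR. ZEB1 was at no more than 0.182 FPKM in any group mean. Leukocytes are a major source of several of these cytokines in tissue. The pan-leukocyte marker PTPRC was at 0 FPKM in all groups, and the 5 leukocyte markers summed to 3.26 to 4.40 FPKM in BxPC-3, 1.53 to 1.77 in BxPC-3-GR. In CFPAC-1 the sum was 32.6 to 40.3 and in its resistant line 14.5 to 16.6 FPKM, with CD68, a lysosomal protein, the highest of them in each group. The part of these differences in the results below was not tested. The 6 fibroblast markers summed to no more than 4.00 FPKM in any library.

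IL-1α (IL1A) and IL-1β (IL1B) bind the receptor IL1R1, which signals only after recruiting the accessory chain IL1RAP. The receptor antagonist (IL1RN) occupies IL1R1 without recruiting it. IL-1 signaling through MYD88 and the IRAK kinases is a classical inducer of cytokine genes such as IL6, LIF and CSF2 and of PTGS2 (COX-2), whose product prostaglandin H2 is turned into prostaglandin E2 by PTGES. In pancreatic cancer, tumor-derived IL-1 and LIF are known as signals between carcinoma cells and stromal fibroblasts, and GM-CSF (CSF2) as a signal to myeloid cells.

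Many of these messages are known to be unstable and to carry repeats of the pentamer ATTTA in the 3′ UTR, so this feature was read from the GENCODE 29 transcripts as a property the choice of genes did not use. The stretches below are the densest 30-base windows of the 5 members with most ATTTA per kilobase, 5′ to 3′, with the pentamers in capitals.
CSF2, starting 220 bases after the stop codon: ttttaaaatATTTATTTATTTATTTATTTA
IL6, starting 124 bases after the stop codon: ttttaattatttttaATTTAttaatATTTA
IL1B, starting 329 bases after the stop codon: tgagcaaccgcttccctATTTATTTATTTA
PTGS2, starting 1 base after the stop codon: aagtctaatgatcatATTTATTTATTTAta
IL1A, starting 614 bases after the stop codon: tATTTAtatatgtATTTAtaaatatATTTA

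CSF2 held 8 pentamers in a 3′ UTR of 318 bases, or 25.16 per kilobase, which was above 99.9% of the 9801 genes that averaged 1 FPKM or more and had a 3′ UTR of at least 50 bases. The density was 13.99 per kilobase in IL6 (above 99.5% of those genes), 9.84 in IL1B (98.5%), 8.59 in PTGS2 (97.9%) and 4.34 in IL1A (86.0%), against a median of 1.6 over the 9801 genes. LIF at 2.18, IL1RAP at 1.27 and PTGES at 0.78 per kilobase were near that median, and IL1RN and IL18 had none. The nonamer ATTTATTTA, made of overlapping pentamers, was found in CSF2, IL1B and PTGS2, and in 6.5% of the 9801 genes. Of the 4 members with the densest repeats, PTGS2 and IL6 had higher means in both resistant lines and IL1B and CSF2 lower means in both. Not all of these changes were called, and IL6 did not pass the expression filter. Whether the pentamer bears on direction was not tested.

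Promoters were available for 8 of the 10 members, in 11 RefSeq entries (GRCh38.p14), and the 250 bases before each transcription start were searched on both strands for AP-1 (TGANTCA), cAMP response (TGACGTCA), C/EBP (TTNNGNAA) and NF-kappa B sites, all of which are classical elements of cytokine promoters. Those of IL1A and PTGS2 are shown because these genes were the members called in both resistant lines. AP-1 and C/EBP matches are in capitals.
IL1A, chr2:112784401-112784650, minus strand: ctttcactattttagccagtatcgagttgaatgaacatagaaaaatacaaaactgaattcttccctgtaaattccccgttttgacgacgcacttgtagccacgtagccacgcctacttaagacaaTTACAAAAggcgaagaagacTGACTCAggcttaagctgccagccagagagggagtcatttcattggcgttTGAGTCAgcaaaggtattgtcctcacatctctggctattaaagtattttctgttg
PTGS2, chr1:186680424-186680673, minus strand: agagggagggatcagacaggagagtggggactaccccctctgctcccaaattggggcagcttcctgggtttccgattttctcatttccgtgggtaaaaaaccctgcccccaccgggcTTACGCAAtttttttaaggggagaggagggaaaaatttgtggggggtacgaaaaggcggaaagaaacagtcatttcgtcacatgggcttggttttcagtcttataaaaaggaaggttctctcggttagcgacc

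The IL1A window held 2 AP-1 matches, TGACTCA at -105 to -99 and TGAGTCA at -55 to -49 from the start, whereas 6.6% of the 35116 promoters in the RefSeq table held at least 1. The window of the other listed IL1A start overlaps this one and held the first of these matches. IL1RN had 1 AP-1 match, TGAGTCA at -223 to -217 from its most upstream start. PTGS2 held the C/EBP match TTACGCAA at -133 to -126 and a TATAAA box at -32 to -27. C/EBP matches were in 33.2% and TATAAA, read on the coding strand, in 6.8% of promoters. IL1B held 3 C/EBP matches, and IL6 held TTGCACAA at -155 to -148 and the kappa B match GGGATTTTCC at -73 to -64, an element found in 10.0% of promoters. The cAMP element (1.6% of promoters) matched in none of the members' windows, and CSF2, PTGES and IL1RAP had none of the motifs. A match is a run of letters and was not tested as a site.

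**Figure D1:**
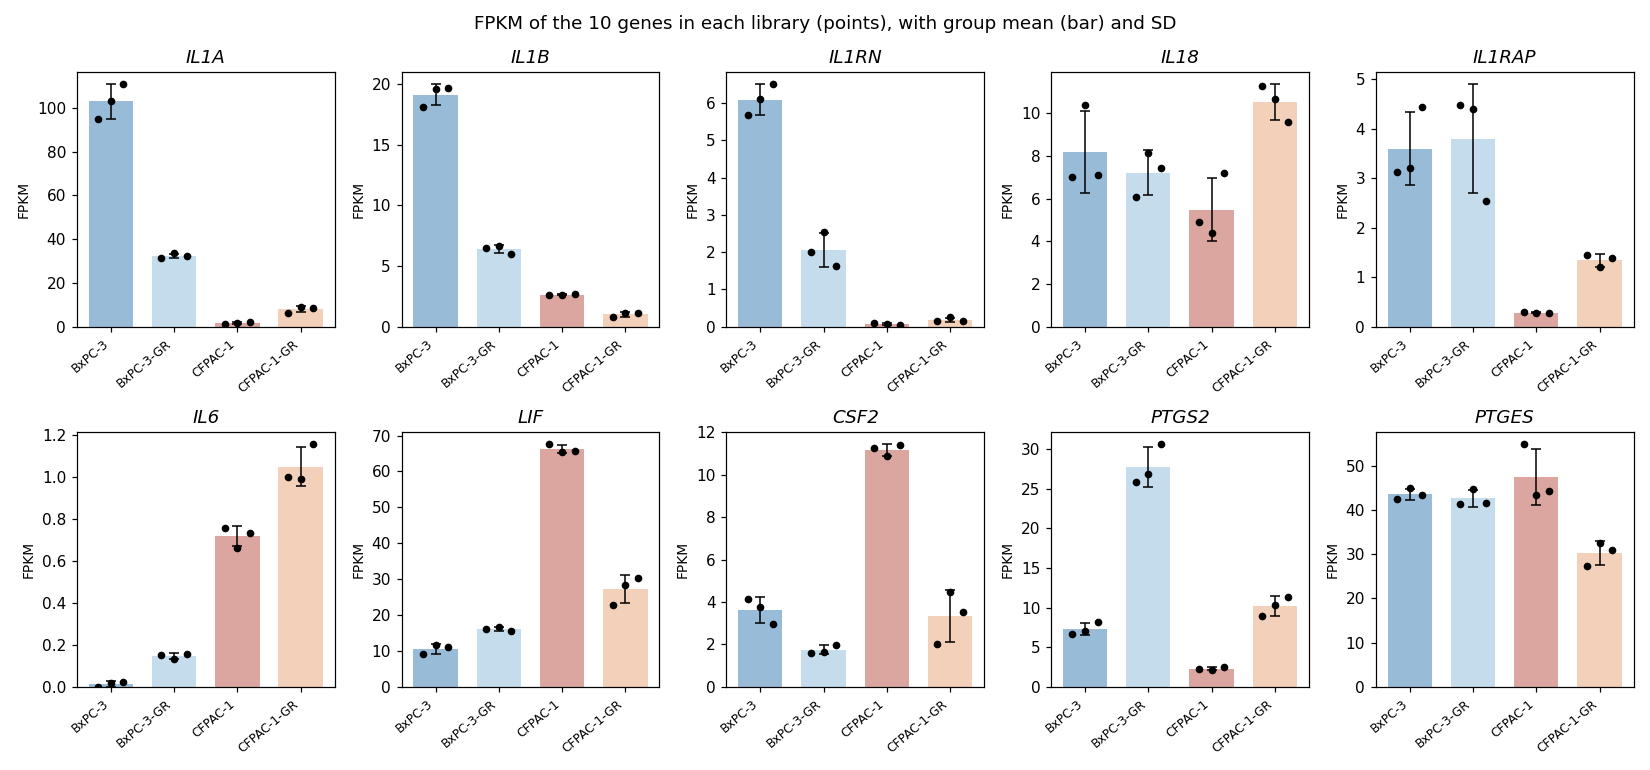
FPKM of the 10 genes in each of the 12 libraries. Points are libraries, bars are group means and error bars are SD (n = 3), with a separate linear axis from 0 for each gene. IL1A, IL1B and IL1RN are highest in BxPC-3, LIF and CSF2 in CFPAC-1, and PTGS2 is higher in each resistant line than in its parental line.

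The ligands came first. IL1A lies on chromosome 2 (GRCh38, 112773915 to 112784590, minus strand; ENSG00000115008) beside IL1B (112829751 to 112836903, minus strand; ENSG00000125538). IL1A was at 95.005, 103 and 111 FPKM in BxPC-3 and at 31.4, 33.5 and 32.1 FPKM in BxPC-3-GR. It was at 1.16, 1.68 and 2.02 FPKM in CFPAC-1 and at 6.39, 8.88 and 8.54 FPKM in CFPAC-1-GR. The 4 groups did not overlap at any step of this order, and the resistant lines moved in opposite directions, down from BxPC-3 and up from CFPAC-1.

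Resistant and parental libraries of a line were tested with limma on log2(FPKM + 1), using genes that averaged 1 FPKM or more over those 6 libraries. For genes near or under 1 FPKM in a group, this scale gives a smaller change than the fold of the means. A gene was called (significantly differentially expressed) at a Benjamini-Hochberg adjusted p under 0.05 with an absolute log2 fold change (log2FC) above 1. IL1A was downregulated in BxPC-3-GR, where its mean was 3.19-fold lower (log2FC -1.64 ± 0.07 SE, adjusted p = 1.6e-05). It was upregulated in CFPAC-1-GR, with a mean 4.90-fold higher (log2FC 1.77 ± 0.16 SE, adjusted p = 5.2e-05). The difference of these responses was 3.41 on the log2 scale (adjusted p = 4.7e-08, limma, interaction contrast over 12 libraries). In CFPAC-1-GR the size of the rise depended on a correction for GC content and transcript length, after which it was 0.82 (adjusted p = 0.009) and no longer passed the fold threshold, whereas the difference between the lines was still called at 2.40.

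That correction bears on every result of the CFPAC-1 pair. Over 12030 genes, log2FC in CFPAC-1-GR and the GC content of the transcript had a Spearman correlation of -0.777 across genes, which share the same 6 libraries. Of the members, PTGS2 (36.9% GC), IL1A (39.1%), IL18 (39.2%) and IL1RAP (41.7%) were higher in all 3 CFPAC-1-GR libraries than in any CFPAC-1 library. LIF and PTGES (56.9% each) and CSF2 (50.3%) were lower in all 3, where the median over genes tested was 49.2%. IL6 (44.5% GC), under the filter, was also higher in all 3 CFPAC-1-GR libraries. IL1B (45.7%), lower in CFPAC-1-GR, and IL1RN (49.9%), higher there, did not follow the same order. What set this trend was not tested. In BxPC-3-GR the correction moved no member's log2FC by more than 0.11.

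IL1B was at 18.1, 19.6 and 19.7 FPKM in BxPC-3 and at 6.48, 6.63 and 6.001 FPKM in BxPC-3-GR. It was downregulated there (3.00-fold lower, log2FC -1.45 ± 0.06 SE, adjusted p = 1.5e-05). In CFPAC-1 it was at 2.63, 2.58 and 2.68 FPKM and in CFPAC-1-GR at 0.773, 1.13 and 1.11 FPKM. The mean was 2.62-fold lower and the groups did not overlap, but the log2FC of -0.86 (adjusted p = 9.6e-05) stayed inside the fold threshold. It crossed that threshold after the GC correction (-1.26), with a pseudocount of 0.1 FPKM (-1.32) and with upper-quartile scaling (-1.12). IL1A and IL1B, neighbors on the chromosome, thus fell together in BxPC-3-GR and parted in CFPAC-1-GR.

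The ratio of IL1A to IL1B FPKM was 5.24, 5.26 and 5.63 in the BxPC-3 libraries and 4.84, 5.05 and 5.36 in BxPC-3-GR, which overlapped. It was 0.443, 0.650 and 0.754 in CFPAC-1, where IL1B was the more abundant transcript in every library, and 8.26, 7.85 and 7.69 in CFPAC-1-GR, where IL1A was. The ratios use deposited FPKM. In the CFPAC-1 pair the GC correction moved the log2FC of IL1A from 1.77 to 0.82 and of IL1B from -0.86 to -1.26. Whether the order of these transcripts in CFPAC-1 depends on GC content was not tested.

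IL1RN (chromosome 2, 113107214 to 113134016, plus strand; ENSG00000136689), the antagonist, was at 5.67, 6.12 and 6.497 FPKM in BxPC-3 and at 2.01, 2.53 and 1.62 FPKM in BxPC-3-GR. It fell with the agonists (2.97-fold lower, log2FC -1.22 ± 0.12 SE, adjusted p = 0.00028). Its level in CFPAC-1 was 0.0883, 0.0680 and 0.0535 FPKM and in CFPAC-1-GR 0.157, 0.2505 and 0.154 FPKM. These correspond to about 2.2 to 5.6 and 7.8 to 13.9 fragments per library by the estimated depth, and IL1RN did not pass the 1 FPKM filter in that pair. The difference of responses was 1.37 (adjusted p = 3.4e-06). It came mostly from the fall in BxPC-3-GR, as the log2FC in CFPAC-1-GR was 0.15 when no filter was used.

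As a share of the summed IL1A and IL1B FPKM, IL1RN was 5.01%, 4.98% and 4.98% in BxPC-3 and 5.31%, 6.31% and 4.26% in BxPC-3-GR. The groups overlapped, so the antagonist fell about in proportion to the agonists. The share was 2.33%, 1.59% and 1.14% in CFPAC-1 and 2.20%, 2.50% and 1.60% in CFPAC-1-GR, which also overlapped and lay below every BxPC-3 and BxPC-3-GR library.

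**Figure D2:**
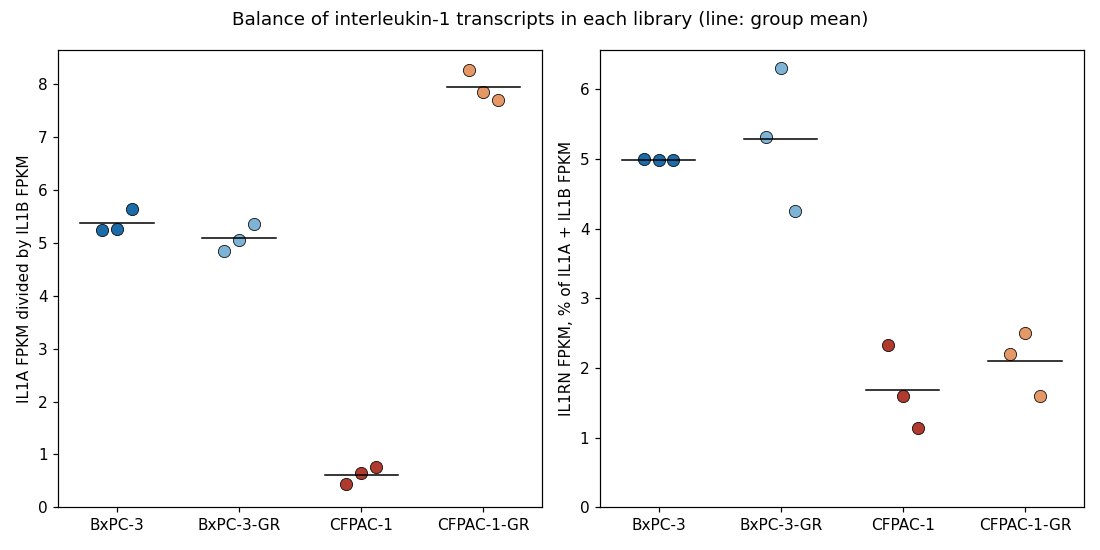
Balance of IL-1 transcripts in each library. Left, IL1A FPKM divided by IL1B FPKM, and right, IL1RN FPKM as a percentage of the summed IL1A and IL1B FPKM, with points for libraries and a line at the mean of each group (n = 3). The CFPAC-1 libraries have the lowest IL1A to IL1B ratios, 0.443 to 0.754, and the CFPAC-1-GR libraries the highest, 7.69 to 8.26. All values are from deposited FPKM, without the GC correction.

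IL18, an IL-1 family cytokine that is processed by caspase-1, was not called in either resistant line. It lies on chromosome 11 (112143251 to 112164117, minus strand; ENSG00000150782) and was at 7.01, 10.4 and 7.12 FPKM in BxPC-3 and at 6.07, 8.14 and 7.42 FPKM in BxPC-3-GR. These overlapped (log2FC -0.15, 95% interval -0.55 to 0.25, adjusted p = 0.47). CFPAC-1 had 4.89, 4.40 and 7.19 FPKM and CFPAC-1-GR 11.3, 10.7 and 9.61 FPKM, without overlap (log2FC 0.85, adjusted p = 0.0021), a rise within the fold threshold that was not seen after the GC correction (-0.13). The third CFPAC-1 library was the highest of its group, and without it the log2FC was 1.03 and IL18 was called. The opposite-strand gene AP002884.3 overlaps IL18, with at most 2.25 FPKM, and whether the counting used strand is not given in the sources used here.

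The other IL-1 family ligand genes were low, with 1 exception, in the 2q13 cluster that holds IL1A, IL1B and IL1RN and elsewhere. IL37, an IL-1 family member known to dampen inflammation, was at 4.76 ± 0.379 FPKM in BxPC-3 (mean ± SD, n = 3) and 0.101 ± 0.0491 FPKM in BxPC-3-GR and was downregulated there (log2FC -2.39, adjusted p = 4.2e-06). It was listed at 0 in most CFPAC-1 and CFPAC-1-GR libraries. IL36G was at a mean of 0.331 FPKM in BxPC-3, 0.0701 in BxPC-3-GR and 0 in both CFPAC-1 groups. IL33, outside the cluster, was at a mean of 0.922 FPKM in BxPC-3, 0.149 in BxPC-3-GR, 0.00580 in CFPAC-1 and 0.00588 in CFPAC-1-GR. The means of IL36A, IL36B, IL36RN and IL1F10 were no higher than 0.180 FPKM in any group.

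IL1RAP, on chromosome 3 (190514051 to 190659750, plus strand; ENSG00000196083), is the shared accessory chain of the IL-1, IL-33 and IL-36 receptors. It was at 3.13, 3.21 and 4.45 FPKM in BxPC-3 and 4.48, 4.39 and 2.53 FPKM in BxPC-3-GR, which overlapped (log2FC 0.046, 95% interval -0.44 to 0.54, adjusted p = 0.86). In CFPAC-1 it was at 0.294, 0.274 and 0.280 FPKM and in CFPAC-1-GR at 1.44, 1.20 and 1.39 FPKM, so that every resistant library exceeded every parental one. The mean was 4.75-fold higher, but IL1RAP did not pass the 1 FPKM filter in this pair and was not tested.

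Among the 8 other receptor genes of the family, 4 passed the filter in the BxPC-3 pair. IL1R1, the signaling receptor, was 19.0-fold higher in BxPC-3-GR (5.15 ± 0.495 against 0.270 ± 0.0541 FPKM, log2FC 2.27, adjusted p = 5.9e-06), in the line where IL1A and IL1B fell. IL1RL1, the IL-33 receptor, was 7.08-fold lower (1.61 ± 0.277 against 11.4 ± 2.11 FPKM, log2FC -2.24, adjusted p = 6e-05). IL18R1 and SIGIRR were not called. In the other pair IL1R1 was at 0.267 FPKM in parental and 1.07 FPKM in resistant cells and did not pass the filter. The decoy receptor IL1R2 was at or under a mean of 0.393 FPKM in all groups, and the IL-18 binding protein IL18BP at or under 0.786 FPKM.

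Of the 11 adaptors and kinases downstream of IL-1 receptors, MYD88 was the only one called in BxPC-3-GR (8.06 against 3.94 FPKM, log2FC 1.01, adjusted p = 0.045). Its BxPC-3 libraries spread from 2.27 to 7.10 FPKM, and the call ended when any 1 library of the pair other than BxPC-3 replicate 2 was left out (log2FC 0.77 to 1.02, adjusted p 0.099 to 0.12). It also ended with a pseudocount of 0.1 FPKM (adjusted p = 0.054), with no filter (0.11) and with the replicate block (0.051). In CFPAC-1-GR, 6 of 10 tested were called, where 20.5% of all 12051 genes tested were called up and 11.7% down. IRAK3, an inhibitory IRAK, rose 7.17-fold (25.1 against 3.50 FPKM, log2FC 2.51), TAB2 (log2FC 1.87), TAB3 (1.41) and MAP3K7 (1.48) rose, and IRAK1 (-1.56) and TAB1 (-1.0) fell. After the GC correction IRAK3 was the only 1 of these 6 still called (1.32). Of 11 inflammasome and IL-1 processing genes, 8 were tested and none called by limma in BxPC-3-GR, where 6 had an adjusted and an unadjusted p under 0.05. Without overlap between the groups were 7 of the 8, where 66.1% of all genes tested in this pair were. In CFPAC-1-GR, CASP1 (log2FC 1.0) rose and PYCARD (-1.18), GSDMD (-1.12) and CAPN1 (-1.20) fell, and none of these 4 was called after the correction. TAB1 and CASP1 were at the fold threshold, and both lost the call without replicate 1 or 2 of CFPAC-1 or replicate 1 or 2 of CFPAC-1-GR (-0.97 to -0.99 and 0.94 to 0.98).

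The cytokines differed from each other. LIF (chromosome 22, 30240447 to 30246851, minus strand; ENSG00000128342), an IL-6 family cytokine, was the highest of the cytokines in CFPAC-1. It was at 9.11, 11.6 and 11.1 FPKM in BxPC-3 and 16.1, 16.7 and 15.6 FPKM in BxPC-3-GR, a rise without overlap that stayed within the fold threshold (log2FC 0.57, adjusted p = 0.0025). In CFPAC-1 it was at 67.6, 65.4 and 65.6 FPKM and in CFPAC-1-GR at 22.8, 28.3 and 30.4 FPKM. There it was downregulated (2.44-fold lower, log2FC -1.26 ± 0.11 SE, adjusted p = 4.4e-05), a call that ended after the GC correction (-0.71, adjusted p = 0.0009). The responses of the lines differed by -1.83 (adjusted p = 7.9e-07), and still by -1.28 after the correction.

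CSF2 (chromosome 5, 132073790 to 132076170, plus strand; ENSG00000164400) was lower in both resistant lines. BxPC-3 had 4.17, 3.76 and 2.98 FPKM and BxPC-3-GR 1.62, 1.65 and 1.996 FPKM, which did not overlap (log2FC -0.75, adjusted p = 0.0018), within the fold threshold. CFPAC-1 had 11.3, 10.9 and 11.4 FPKM and CFPAC-1-GR 2.04, 4.45 and 3.52 FPKM, and CSF2 was downregulated (3.35-fold lower, log2FC -1.53 ± 0.20 SE, adjusted p = 0.00034). It was still called after the GC correction (-1.33). The responses differed by -0.78 (adjusted p = 0.015), within the threshold.

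IL6 (chromosome 7, 22725884 to 22732002, plus strand; ENSG00000136244) was the lowest of the 3 cytokines in every group. It was at 0, 0.0208 and 0.0239 FPKM in BxPC-3, which corresponds to about 1 fragment or none per library, and at 0.154, 0.132 and 0.156 FPKM in BxPC-3-GR, or about 5.9 to 8.1 fragments. CFPAC-1 had 0.756, 0.663 and 0.732 FPKM and CFPAC-1-GR 1.0003, 0.989 and 1.15 FPKM. No groups overlapped, and each resistant group was above its parental group. IL6 passed the filter in no comparison and was not tested. Without the filter and with a pseudocount of 1 FPKM, its log2FC was 0.18 in the BxPC-3 pair and 0.25 in the CFPAC-1 pair. The opposite-strand genes STEAP1B and AC073072.1 overlap IL6, at up to 0.581 and 0.330 FPKM.

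Of the 12 receptors and signaling genes of the IL-6 family, IL6ST (gp130), the chain shared by IL-6 and LIF, rose 13.0-fold in CFPAC-1-GR (12.4 ± 2.31 against 0.948 ± 0.0216 FPKM, log2FC 2.76, adjusted p = 6.3e-06) and was still called after the GC correction (1.35). LIFR, the LIF receptor, was 5.17-fold higher there (log2FC 1.59) and OSMR, the oncostatin M receptor, 2.16-fold higher (1.08), neither called after the correction (0.12 and 0.40; OSMR was also not called under either scaling, 0.93 and 0.66), and SOCS1, a feedback inhibitor, was lower (-1.27, or -0.19 and not called after the correction). In BxPC-3-GR, IL6R fell (1.70 against 5.05 FPKM, log2FC -1.16, adjusted p = 0.00012) and the kinase JAK2 rose (13.5 against 5.37 FPKM, log2FC 1.18). IL6ST was at 6.85 FPKM in BxPC-3-GR and 12.4 FPKM in BxPC-3 (log2FC -0.78, not called). Of the 8 other IL-6 family ligands, 2 were tested in the BxPC-3 pair and 3 in the CFPAC-1 pair, and none was called by limma. Of those tested, 1 of 2 and 2 of 3 had an unadjusted p under 0.05. Among those under the filter, CNTF was higher without overlap in CFPAC-1-GR (1.18 against 0.0833 FPKM). EBI3, under the filter in the BxPC-3 pair, was higher without overlap in BxPC-3-GR (0.513 against 0.0493 FPKM). IL11 was at or under a mean of 1.14 FPKM.

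CSF1, the macrophage colony-stimulating factor, was 6.60-fold higher in BxPC-3-GR (14.3 ± 0.607 against 2.16 ± 0.104 FPKM, log2FC 2.27, adjusted p = 2.7e-06) while CSF2 was lower. In the CFPAC-1 pair it was at 5.68 FPKM in resistant and 5.76 FPKM in parental cells (log2FC -0.018, adjusted p = 0.84), and the log2FC was 0.61 (adjusted p = 0.00049) after the GC correction, not called. CSF3 was at 5.61 FPKM in BxPC-3-GR and 2.77 FPKM in BxPC-3 (log2FC 0.81, not called). CSF2RA, the ligand-binding chain of the GM-CSF receptor, was at a mean of 0 in BxPC-3, 0.00373 in BxPC-3-GR, 0.832 in CFPAC-1 and 2.03 FPKM in CFPAC-1-GR, and the signaling chain CSF2RB at no more than 0.0713 FPKM.

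PTGS2 (chromosome 1, 186671791 to 186680427, minus strand; ENSG00000073756), the inducible cyclooxygenase, was at 6.62, 7.07 and 8.19 FPKM in BxPC-3 and 25.8, 26.8 and 30.6 FPKM in BxPC-3-GR. It was at 2.28, 2.18 and 2.46 FPKM in CFPAC-1 and 8.91, 10.3 and 11.3 FPKM in CFPAC-1-GR. Each resistant group lay above its parental group, and no other member was called with the same sign in the 2 resistant lines. It was 3.80-fold higher in BxPC-3-GR (log2FC 1.79 ± 0.10 SE, adjusted p = 3.5e-05) and 4.42-fold higher in CFPAC-1-GR (log2FC 1.75 ± 0.10 SE, adjusted p = 8e-06). The difference of the responses was -0.040 (95% interval -0.35 to 0.27, adjusted p = 0.81). After the GC correction the rise was 1.84 in BxPC-3-GR. It was 0.51 (adjusted p = 0.011) and not called in CFPAC-1-GR, and the responses then differed by -1.28 (adjusted p = 3.7e-05).

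PTGES (chromosome 9, 129738331 to 129753047, minus strand; ENSG00000148344), the terminal synthase, was the most abundant member in CFPAC-1-GR and BxPC-3-GR and did not rise with PTGS2. It was at 42.4, 44.8 and 43.4 FPKM in BxPC-3 and 41.2, 44.8 and 41.6 FPKM in BxPC-3-GR (log2FC -0.032, 95% interval -0.17 to 0.10, adjusted p = 0.64). It was at 54.8, 43.3 and 44.3 FPKM in CFPAC-1 and 27.3, 32.6 and 30.9 FPKM in CFPAC-1-GR, lower without overlap but within the fold threshold (log2FC -0.63, adjusted p = 0.0019). It was called with upper-quartile scaling (-1.05, adjusted p = 0.00018), and after the GC correction it was 0.082 (adjusted p = 0.46).

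Of the 13 other genes of prostaglandin synthesis, 7 were tested in the BxPC-3 pair and none was called by limma, with 4 at an adjusted p and 4 at an unadjusted p under 0.05. Without overlap between the groups were 4 of the 7, where 66.1% of all genes tested in this pair were. PTGS1, the constitutive cyclooxygenase, was at 2.94 ± 0.265 FPKM in BxPC-3-GR and 6.72 ± 0.276 FPKM in BxPC-3 (log2FC -0.97, adjusted p = 8.2e-05), just inside the fold threshold and opposite in sign to PTGS2. PLA2G4A, the phospholipase that releases arachidonic acid, was at 22.5 and 15.6 FPKM in the same groups (log2FC 0.50). In CFPAC-1-GR, PLA2G4A rose 6.55-fold (5.35 against 0.817 FPKM, log2FC 1.81, adjusted p = 6.3e-06) and PTGES2 (-1.26) and the thromboxane synthase TBXAS1 (-1.19) fell, and none of the 3 was called after the correction (0.80, -0.28 and -1.0). The cytosolic synthase PTGES3 was at 36.0 to 53.5 FPKM in the 4 group means and was not called.

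Among 11 genes of prostaglandin transport, breakdown and reception, the reductase PTGR1 rose in BxPC-3-GR (9.54 against 4.27 FPKM, log2FC 1.0) and the exporter ABCC4 in CFPAC-1-GR (4.23 against 0.833 FPKM, log2FC 1.52, or 0.56 after correction). PTGR1 was not called without BxPC-3 replicate 1 (0.92) or BxPC-3-GR replicate 3 (0.98). HPGD, which inactivates prostaglandin E2, was at 2.34 FPKM in CFPAC-1-GR and 0.724 FPKM in CFPAC-1 (log2FC 0.95, not called), and its log2FC was -0.24 after the GC correction. The prostaglandin E2 receptor PTGER4 was at 1.76 FPKM in BxPC-3-GR and 3.51 FPKM in BxPC-3 (log2FC -0.70, not called), and PTGER2 was at or under 0.085 FPKM. Of 8 factors that bind AU-rich messages, none was called by limma in BxPC-3-GR, where 5 had an adjusted and an unadjusted p under 0.05. Without overlap between the groups were 6 of the 8, where 66.1% of all genes tested in this pair were. In CFPAC-1-GR TIA1 rose (log2FC 1.56) and ZFP36 fell (-1.18, adjusted p = 0.033, limma). Neither was called after the correction (0.25 and -0.45). ZFP36 spread from 5.15 to 13.3 FPKM over the CFPAC-1 libraries and its call ended without CFPAC-1 replicate 2 (adjusted p = 0.09) or 3 (0.096) or CFPAC-1-GR replicate 1 (0.091).

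Counted together, 9 of the 10 members were tested in the BxPC-3 pair, where 1 was called up and 3 down, against a background over all 11710 genes tested of 4.14% up and 3.62% down. Of the 9, 6 did not overlap between the groups, a share close to the background of 66.1%. In the CFPAC-1 pair 7 members were tested, with 2 up and 2 down against a background of 20.5% up and 11.7% down of 12051 genes. After the GC correction 0 of these members were up and 2 down, IL1B and CSF2, while 564 of 12030 genes were up and 478 down. All 7 were without overlap between the groups, as were 82.1% of all genes tested. The median log2FC of the tested members was -0.15 in the BxPC-3 pair, where all genes tested had -0.05. In the CFPAC-1 pair it was -0.63, against 0.13. That median leaves out IL1RAP, IL6 and IL1RN, which did not pass the filter there. These were higher in CFPAC-1-GR without overlap, with log2FC of 0.87, 0.25 and 0.15 when no filter was used. Of the 96 other genes in the pathway lists, 56 were tested in the BxPC-3 pair with 5 up and 3 down, and 51 in the CFPAC-1 pair with 11 up and 9 down. After the GC correction the latter counts were 3 up and 2 down, while the BxPC-3 counts were 5 and 3. The members and lists were chosen with earlier results of these data known, so these counts are not a test of the set.

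Of the members tested for a difference of response between the lines, 2 of 9 were called higher in the CFPAC-1 pair (IL1A and IL1RN) and 1 lower (LIF). IL1RN passed the filter over 12 libraries only through its BxPC-3 and BxPC-3-GR levels (means of 6.09 and 2.06 FPKM). It was at 0.0699 FPKM in CFPAC-1 and 0.187 FPKM in CFPAC-1-GR, so its difference reflects mostly the fall in BxPC-3-GR. The background over 12210 genes was 23.6% higher and 14.4% lower.

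**Figure D3:**
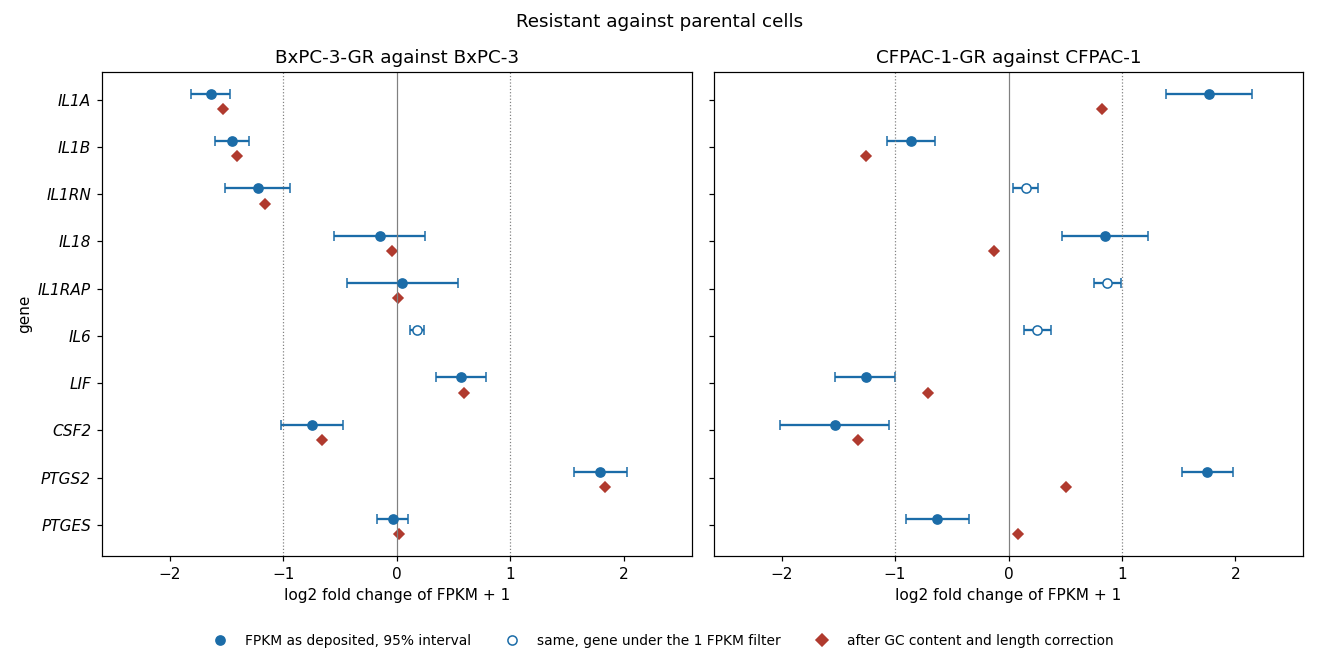
Log2 fold change of FPKM + 1 of the 10 genes in BxPC-3-GR against BxPC-3 (left) and CFPAC-1-GR against CFPAC-1 (right). Circles are the deposited values with 95% intervals, open where the gene did not pass the 1 FPKM filter, diamonds are the values after correction for GC content and length, and dotted lines mark the fold threshold of 1. The diamonds lie on or near the circles in BxPC-3-GR and are farthest from them for PTGS2 in CFPAC-1-GR (1.75 and 0.51).

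**Figure D4:**
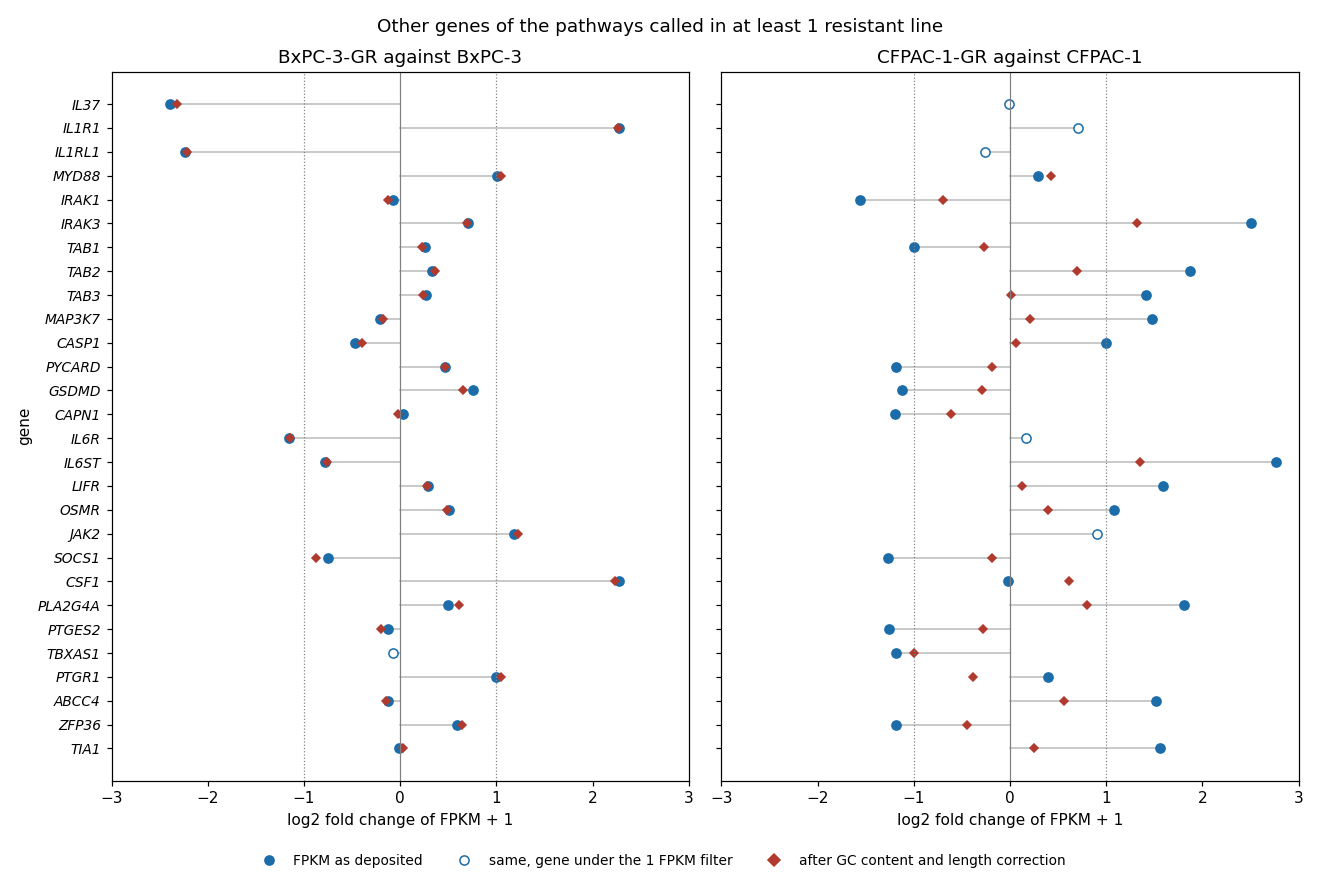
Log2 fold change of FPKM + 1 for the 28 other pathway genes called in at least 1 resistant line, with BxPC-3-GR against BxPC-3 on the left and CFPAC-1-GR against CFPAC-1 on the right. Circles are deposited values (open where under the 1 FPKM filter), diamonds are values after correction, and dotted lines mark the threshold of 1. IL1R1, CSF1 and JAK2 are the highest in BxPC-3-GR, and IL6ST and IRAK3 in CFPAC-1-GR.

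The lines were then compared with each other, in comparisons that share their libraries with those above. In CFPAC-1 against BxPC-3, IL1A was 63.5-fold lower (log2FC -5.32, adjusted p = 2.2e-07), IL1B 7.28-fold lower (-2.47), IL1RN 87.2-fold lower (-2.73 on the log2 of FPKM + 1, a scale that understates the change of low genes), IL1RAP 12.7-fold lower (-1.83) and PTGS2 3.16-fold lower (-1.32). LIF was 6.25-fold higher (2.54, adjusted p = 6.8e-07) and CSF2 3.08-fold higher (1.40, adjusted p = 1.6e-05). IL18 (-0.50, adjusted p = 0.053) and PTGES (0.11, adjusted p = 0.31) overlapped and were not called. Thus 2 of 9 tested members were called up and 5 down, against 19.8% and 24.7% of 11842 genes, and 7 of 9 were without overlap against 85.6%. After the GC correction PTGS2 (-0.086) and IL1RAP (-0.63) were no longer called. Of the other pathway genes, 57 were tested, with 8 called up and 21 down, and with 5 up and 17 down after the correction. IL6ST (0.948 against 12.4 FPKM) and PLA2G4A (0.817 against 15.6 FPKM) were among those down.

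Between the resistant lines IL1A was 4.07-fold lower in CFPAC-1-GR than in BxPC-3-GR (log2FC -1.91, adjusted p = 1.6e-05), IL1B 6.34-fold lower (-1.88), IL1RN 10.97-fold lower (-1.35), PTGS2 2.72-fold lower (-1.36) and IL1RAP 2.83-fold lower (-1.01, adjusted p = 0.0022). None of the members was called higher by limma, while 3 of 9 were higher at an unadjusted p under 0.05, among them LIF (1.69-fold higher, log2FC 0.71, adjusted p = 0.0013) and CSF2 (0.62, adjusted p = 0.036). The background was 10.3% up and 6.80% down of 12330 genes, and all 9 tested members were without overlap against 71.0%. IL1RAP was called with the 6 libraries but not without BxPC-3-GR replicate 1 (-0.90) or replicate 2 (-0.91), nor without CFPAC-1-GR replicate 2 (-0.96). Without BxPC-3-GR replicate 1 or 2, IL1RN fell under the 1 FPKM filter and was not tested, so that 3 members were called in those settings. The change in these gaps between parental and resistant cells is the difference of responses given above: called for IL1A, IL1RN and LIF, whose gaps narrowed, and -0.040 for PTGS2. Of the other pathway genes, 56 were tested between the resistant lines, with 3 called up and 9 down, IL1R1 (1.07 against 5.15 FPKM) and CSF1 (5.68 against 14.3 FPKM) among the latter. IL6ST was at 12.4 and 6.85 FPKM and was not called.

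**Figure D5:**
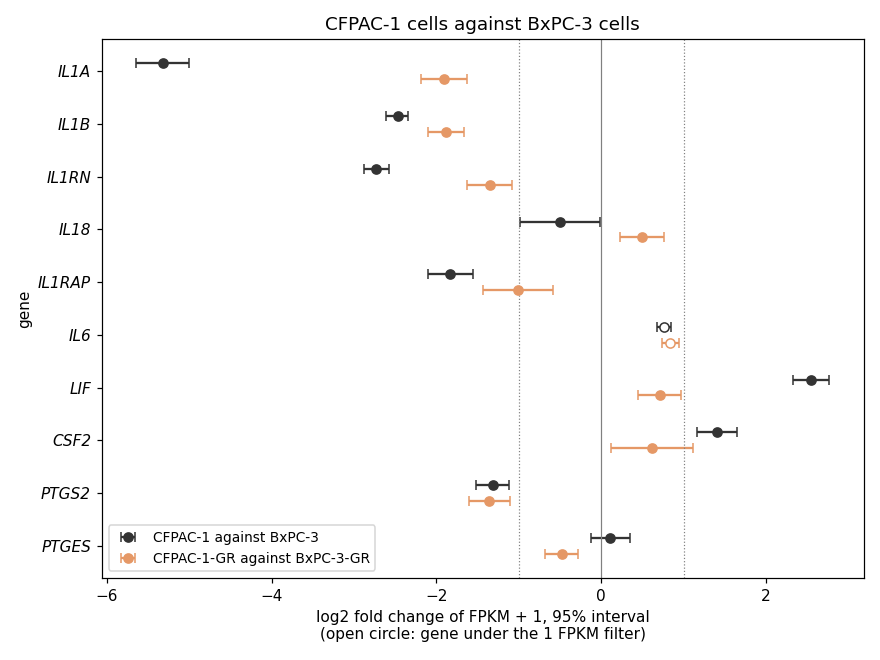
Log2 fold change of FPKM + 1 of the 10 genes in CFPAC-1 cells against BxPC-3 cells, for the parental lines (dark) and the resistant lines (light), with 95% intervals and dotted lines at the fold threshold of 1. Open circles mark IL6, which did not pass the 1 FPKM filter. IL1A moves from -5.32 between the parental lines to -1.91 between the resistant lines.

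For each member that averaged 1 FPKM or more, the genes of most similar pattern were found by Pearson correlation of log2(FPKM + 1) over the 12 libraries, among 12210 genes. The points fall into 4 groups and share these libraries, so the values describe the group levels. IL1A was nearest to MID2 (r = 0.9955) and MYO10 (0.9952), IL1B to PADI3 (0.9942) and DUSP7 (0.9933), and IL1RN to ADAMTS12 (0.9958) and PAX7 (0.9955). LIF was nearest to REEP6 (0.9972) and RMND5B (0.9949), CSF2 to ERCC1 (0.9866) and TMEM158 (0.9837), and PTGS2 to SH3BGRL2 (0.9952) and FOXC1 (0.9948). IL1RAP came with TANC1 (0.9836) and LATS1 (0.9821), PTGES with BRK1 (0.9657) and TIMM29 (0.9654), and IL18 with the pseudogene FNBP1P1 (0.9211) and PPWD1 (0.9179). No member was among the 2 nearest genes of another member.

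In these bulk libraries, fewer cells that express a gene and less RNA of it per cell cannot be told apart.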

How the data were processed

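Total RNA was sequenced from 3 samples of each parental line and 3 of each resistant line. The authors deposited 1 table of FPKM for 58302 genes, aligned to GRCh38 with Ensembl 91 by the study's methods. The submitters' processing notes name Trimmomatic 0.27, FastQC 0.10.1 and TopHat2 2.0.8 and the builds hg19 and GRCh38. The counting program, its use of strand and any poly(A) selection are not given in the sources used here. FPKM keep no raw counts, so the study's count model was not rerun. Depth was estimated from the spacing of low FPKM values, of which 61.4% to 69.3% per library lay within 0.1 of a whole fragment, so no count test was run, and fragment numbers given in the text are estimates.

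Groups were compared with limma 3.58.1 (R 4.3.3, lmFit and eBayes) on log2(FPKM + 1), for genes averaging 1 FPKM or more over the libraries of each fit and Benjamini-Hochberg adjustment over all of them. Calls used the study's criteria, adjusted p under 0.05 and absolute log2FC above 1. The scripts were tested on simulated data. Positions, GC content and 3′ UTRs came from GENCODE 29, to which 58039 genes matched by identifier, and promoters from RefSeq. The UTR is that of the protein-coding transcript with the longest coding sequence. Alternatives were a pseudocount of 0.1 FPKM, no filter, 1 fit of all 12 libraries, a replicate block, a correction for GC content and length (splines of 5 degrees of freedom), 2 scalings, protein-coding genes only and each library left out. Named besides the members are genes called in a resistant line and receptors, relatives and enzymes next to a member. The members and lists were chosen with earlier results of these data known.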

Additional observations from a re-analysis of the deposited data

Results flagged for a closer look

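The responses of the lines to GEM resistance differed by the interaction contrast (adjusted p under 0.05 and a difference above 1, limma) for 3 of 9 members tested and 29 of 59 other pathway genes tested, where 23.6% of all 12210 genes were called higher and 14.4% lower. Differences are the log2FC in CFPAC-1-GR less that in BxPC-3-GR. Among members they were 3.41 for IL1A, 1.37 for IL1RN and -1.83 for LIF, all 3 still called after the GC correction. IL1RN averaged 0.0699 FPKM in CFPAC-1 and 0.187 FPKM in CFPAC-1-GR, so its difference came mostly from the fall in BxPC-3-GR.

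Of the other genes, differences still called after that correction were IL37 at 2.38, IL1R1 at -1.56, IL6R at 1.33, IL6ST at 3.54, CSF1 at -2.29 and PTGS1 at 1.22. The other 23 were not called after it. They were, in the IL-1 pathway, IL1RL1 at 1.98, IRAK1 at -1.48, IRAK3 at 1.81, TAB1 at -1.26, TAB2 at 1.54, TAB3 at 1.14, MAP3K7 at 1.69, CASP1 at 1.48, PYCARD at -1.65, GSDMD at -1.87 and CAPN1 at -1.24. Among the cytokine, prostaglandin and AU-rich binding genes they were LIFR at 1.30, CSF3 at -1.02, PLA2G4A at 1.31, PTGES2 at -1.13, TBXAS1 at -1.12, ABCC4 at 1.65, ZFP36 at -1.77, ZC3H12A at -1.53 and TIA1 at 1.57. CAPN2 (1.23), EBI3 (-1.13) and SOCS3 (-1.80) were also called and are named after their values were seen. After the correction TBXAS1 was at -0.92 (adjusted p = 5e-07, limma) and SOCS3 at -0.96 (6.9e-05), inside the fold threshold, and ZFP36 at -1.07 (0.12). CSF3 lost its call in 5 settings that left out 1 library (BxPC-3 replicate 3, BxPC-3-GR replicate 1 or 2, CFPAC-1 replicate 1, CFPAC-1-GR replicate 2), at -0.95 to -0.99. PTGES2 lost it without BxPC-3-GR replicate 2 (-0.97) and EBI3 without CFPAC-1-GR replicate 1 (-0.98). PTGS1, still called after the GC correction, was not called with upper-quartile scaling (0.94, adjusted p = 2.6e-05, limma). IL37 averaged 0.0409 FPKM in CFPAC-1 and 0.0364 FPKM in CFPAC-1-GR, so its difference came from the fall in BxPC-3-GR. IL1RL1 was lower in both resistant lines. In the CFPAC-1 pair it was at 0.101 FPKM in resistant and 0.322 FPKM in parental cells, without overlap, and did not pass the filter. The differences of TAB3 and LIFR turned in sign after the GC correction (-0.18 and -0.11). The part of base composition in these differences was not tested.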

How the results depend on the processing

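The genes called among all tested numbered 909 in BxPC-3-GR, 3880 in CFPAC-1-GR, 5274 between the parental lines, 2111 between the resistant lines and 4643 for the difference of responses. With a pseudocount of 0.1 FPKM the first was 1429, and without the filter as well the counts were 2769, 8509, 11018, 6565 and 9558, with more low genes tested. After the GC and length correction they were 1042 in CFPAC-1-GR, 3143 between parental lines and 2243 for the difference, and with the replicate block added 1046, 3140 and 2239. Members called in CFPAC-1-GR went from 4 to 2 with the correction, with or without the block. For the difference of responses they went from 3 to 5 with the pseudocount of 0.1 FPKM, with or without the filter, and with upper-quartile scaling. The cause was not tested. Between the resistant lines they ranged from 3 to 5 over the libraries left out, 3 without BxPC-3-GR replicate 1 or 2, where IL1RN was under the filter and IL1RAP inside the fold threshold.

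Scaling moved the median log2FC of all genes in CFPAC-1-GR from 0.13 to -0.01 (median of ratios) or -0.24 (upper quartile). Upregulated genes made up 63.7% of calls there, against 52.4% and 35.4%. Between the parental lines they made up 44.6%, against 57.3% with the upper quartile, and for the difference of responses 62.1%, against 46.5% and 39.1%. Relative to these shifts no called member turned.

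Signs turned only for members that were not called. In BxPC-3-GR, PTGES was 0.024 after the correction and 0.018 with the median of ratios, and over the libraries left out IL18 ranged from -0.24 to 0.017 and IL1RAP from -0.063 to 0.25. After the correction, IL18 was -0.13 and PTGES 0.082 in CFPAC-1-GR, IL18 0.44 and PTGES -0.77 between the parental lines, and IL18 -0.046, IL1RAP -0.29 and PTGES 0.082 for the difference of responses. That difference was 0.18 for PTGS2 with a pseudocount of 0.1 FPKM, -0.12 to 0.045 over the libraries left out, and -0.62 for IL6 with the low pseudocount and no filter.

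Replicate numbers did not pair the samples: same-numbered deviations correlated at -0.134 to 0.0895. The replicate block without the correction moved no count by over 1.5 times, and MYD88 in BxPC-3-GR lost its call (adjusted p = 0.051, limma). Depth limits IL6 in BxPC-3 and IL1RN in CFPAC-1.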
